A study of Mus musculus with 6 samples.

Results

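The genes described here are 10 transcripts known to be induced by progesterone or by glucocorticoids: Errfi1, Fst, Zbtb16, Fkbp5, Tsc22d3, Per1, Sgk1, Klf9, Hand2 and Cebpb. They were followed in whole oviducts of female MF1 mice, an outbred stock, with 3 samples of genotype Wt1 ko/+ (heterozygous) and 3 of genotype Wt1 +/+ (wild type). The fathers of the litters were wild type, and the tissue was taken at embryonic day 2.5, while embryos are in transit. Each sample was hybridised as biotin-labelled cRNA from 1 µg of total RNA to 1 expression array, on which a probe set is a group of short probes that reports 1 value for a transcript. Members were all probe sets that the platform annotation ties to 1 of these genes and no other: 28 probe sets of 45037 tested, for 10 of 18193 genes. The labels do not say which part of Wt1 the ko allele lacks, and give neither pooling nor the number of animals behind a sample.

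Progesterone and glucocorticoids act through closely related nuclear receptors, which in the nucleus bind the same inverted-repeat DNA element once they carry hormone. Many of their targets are therefore shared, and several of them, such as Fkbp5, act back on the receptor or its chaperones. After ovulation the corpus luteum supplies progesterone, which slows oviductal muscle and ciliary beat and changes the secretions around the embryo. In the mouse uterus, Errfi1 and Hand2 carry part of the progesterone signal that restrains growth factor action on the epithelium. The labels state no hormone levels for these females.

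The Wt1 probe set, the check of the genotype labels, had levels of 11.12, 11.27 and 11.79 in heterozygous replicates 1, 2 and 3, against 12.17, 12.06 and 11.67 in wild-type replicates 1, 2 and 3 (log2 of the normalized intensity, the scale of all levels below). Heterozygous replicate 3 lay above wild-type replicate 3, so the groups overlapped (log2 change -0.57, limma adjusted p = 0.933 over probe sets). The median deposited intensity was 151.6 to 167.8 over the arrays, and correlations between arrays ran between 0.931 and 0.963 across probe sets. Wild-type replicate 3 stood apart in RNA quality: its ratio of 3' to 5' Actb control signal, which grows as RNA is degraded, was 5.90. The ratio was 2.49, 1.67 and 1.71 in heterozygous replicates 1, 2 and 3, and 1.74 and 2.40 in wild-type replicates 1 and 2. The oviduct label was borne by its markers, with Ovgp1, the oviductal glycoprotein of secretory cells, at 14.33 in heterozygous and 14.27 in wild-type samples, and Foxj1, the regulator of motile cilia, at 11.76 and 12.07 in the same order of genotypes.

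Of the 10 genes, each taken at its brightest probe set, 8 had a positive log2 change in heterozygous oviducts and 2 a negative one. Errfi1, Fst, Sgk1 and Hand2 had all 3 heterozygous values above all 3 wild-type values, and no gene had the opposite order. Among all 18193 genes 5.0% were higher without overlap and 6.77% lower without overlap, and 45.0% had a positive change. The median log2 change was 0.27 over the 10 genes and -0.03 over all genes. None of the 10 passed an adjusted p of 0.05 in limma's moderated test over all genes (adjusted p between 0.610 and 0.974), and none of the 28 probe sets did over all probe sets (0.878 to 0.993). At that threshold 0% of all genes were called higher and 0.0165% lower, and 0.00222% of all probe sets were called higher and 0.00444% lower. At an unadjusted limma p under 0.05 there were 3 of the 10 genes, Errfi1, Fst and Sgk1, where 6.44% of all genes reached it, and 3 of the 28 probe sets, where 5.18% of all probe sets did. The genes were listed with earlier results of these data known, so these counts are a description. In whole tissue, a change in the number of cells of a type and a change in RNA per cell cannot be told apart.

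**Figure D1:**
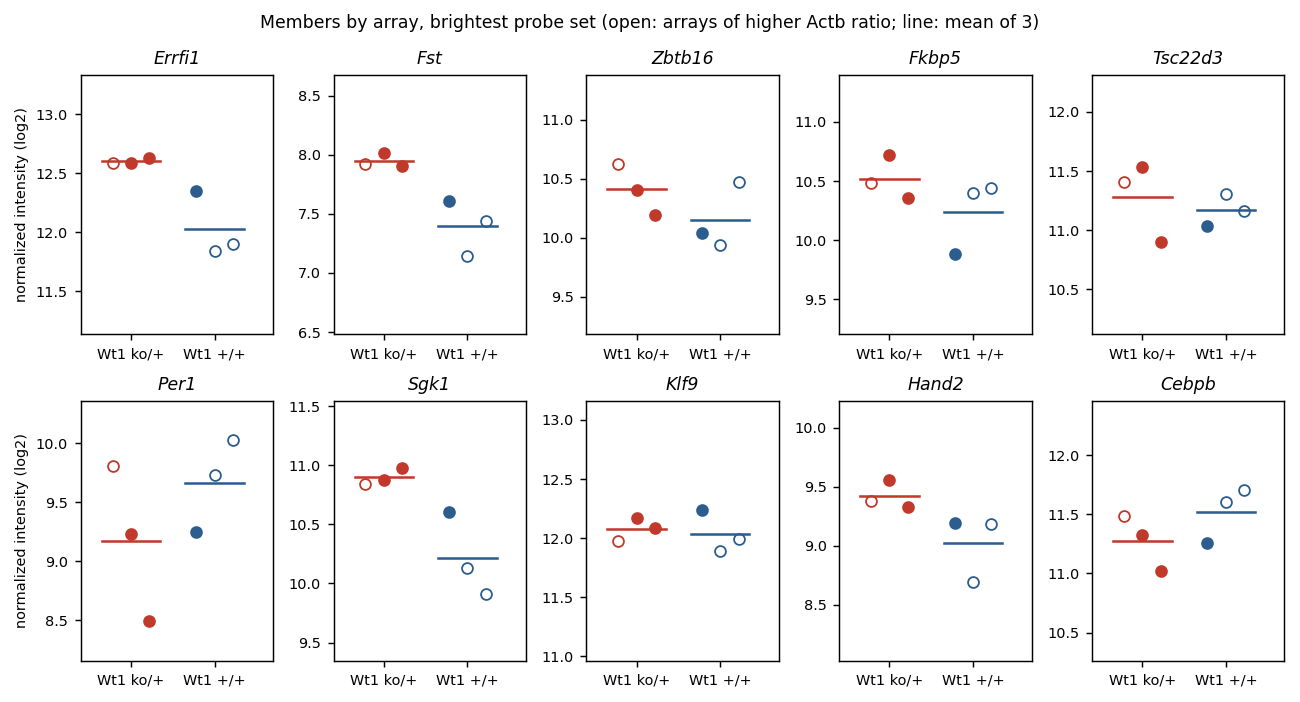
Normalized intensity (log2, vertical axis, each panel spanning the same range) of the 10 genes at their brightest probe sets in 3 Wt1 ko/+ and 3 Wt1 +/+ arrays. Points are arrays, lines are means, and open points are the 3 arrays of higher Actb 3' to 5' ratio. Errfi1, Fst, Sgk1 and Hand2 show no overlap between genotypes, while Per1 and Cebpb have lower means in Wt1 ko/+.

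Sgk1, Errfi1 and Fst encode regulators of signalling and had the highest log2 changes of the 10 genes at their brightest probe sets. Sgk1 is a serum- and glucocorticoid-induced kinase that raises epithelial sodium uptake. Its only probe set, 1416041_at, had levels of 10.84, 10.87 and 10.98 in heterozygous replicates 1, 2 and 3, against 10.61, 10.13 and 9.91 in wild-type replicates 1, 2 and 3. All heterozygous arrays were close together and above the wild-type arrays, of which replicate 3 was the lowest. The means were 10.90 ± 0.07 in heterozygous and 10.22 ± 0.36 in wild-type oviducts (SD, n = 3 each), a 1.60-fold difference (log2 change 0.68, standard error 0.21, limma adjusted p = 0.878). The exact two-sided permutation p of Sgk1 was 0.1, the smallest that 3 arrays against 3 allow.

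Because Sgk1 had the highest change of the 10, promoter windows were read for the receptors' element: 300 bases around annotated starts, 250 before and 50 after, from RefSeq on build GRCm38.p6. RefSeq windows were found for 8 of the 10 genes, 17 windows in all. The inverted repeat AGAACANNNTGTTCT, which reads the same on both strands, was found in 1 of these windows, an Sgk1 one, and in 3 of all 32851 windows (0.00913%). The looser form GNACANNNTGTNC, which overlaps it, was found in the same single window of the 17 and in 0.475% of all windows. One arm alone, AGAACA or TGTTCT, was found in 4 of the 17 windows, of Sgk1 and Tsc22d3, and in 19.0% of all windows. The cyclic AMP element TGACGTCA, a palindrome searched because cyclic AMP and progesterone act jointly in reproductive tissue, was found in 1 of the 17 windows, of Errfi1, and in 1.79% of all windows. The windows below are shown in lower case with these matches in capitals. They are Sgk1 at chr10:21993640-21993939 (plus strand), 1 of 6 start windows of that gene, Errfi1 at chr4:150854820-150855119 (plus strand) and Tsc22d3 at chrX:140600473-140600772 (minus strand). Other Sgk1 windows with 1 arm alone are not shown. A match describes the letters of a window and does not show binding. Since 6 of the 17 windows are of Sgk1 and the genes were listed as known hormone targets, these shares do not measure enrichment.
Sgk1: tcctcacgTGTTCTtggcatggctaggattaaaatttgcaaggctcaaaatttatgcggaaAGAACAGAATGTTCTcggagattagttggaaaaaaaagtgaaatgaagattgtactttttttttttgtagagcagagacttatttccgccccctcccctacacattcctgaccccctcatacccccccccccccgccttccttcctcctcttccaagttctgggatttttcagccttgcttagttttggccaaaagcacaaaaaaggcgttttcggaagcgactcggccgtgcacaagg
Errfi1: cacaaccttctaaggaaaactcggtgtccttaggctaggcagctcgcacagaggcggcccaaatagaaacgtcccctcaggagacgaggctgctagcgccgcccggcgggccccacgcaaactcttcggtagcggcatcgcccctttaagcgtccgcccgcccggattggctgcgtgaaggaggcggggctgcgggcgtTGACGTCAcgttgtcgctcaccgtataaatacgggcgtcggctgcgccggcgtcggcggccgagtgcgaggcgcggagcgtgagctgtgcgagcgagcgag
Tsc22d3: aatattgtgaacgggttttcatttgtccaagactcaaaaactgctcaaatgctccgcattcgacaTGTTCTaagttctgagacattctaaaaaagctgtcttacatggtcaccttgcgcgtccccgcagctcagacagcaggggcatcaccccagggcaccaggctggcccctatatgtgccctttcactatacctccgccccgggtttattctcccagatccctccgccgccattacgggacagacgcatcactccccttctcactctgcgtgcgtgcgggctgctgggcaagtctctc
In the Sgk1 window the complete element begins 189 bases before the start site and a further TGTTCT 242 bases before it. The Errfi1 element begins 51 bases before its start, and the single Tsc22d3 arm 185 bases before its start.

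Errfi1 (also called Mig6) binds the EGF receptor and blocks its kinase. Probe set 1416129_at had levels of 12.58, 12.59 and 12.63 in heterozygous replicates 1, 2 and 3, against 12.35, 11.84 and 11.90 in wild-type replicates 1, 2 and 3. The heterozygous arrays differed among themselves far less than the wild-type arrays (SD 0.02 and 0.28, n = 3 each). The fold difference was 1.48 (log2 change 0.57, standard error 0.18, limma adjusted p = 0.894). The other Errfi1 probe set, 1419816_s_at, had levels of 10.92, 11.54 and 11.16 in heterozygous replicates 1, 2 and 3, against 11.16, 9.87 and 8.68 in wild-type replicates 1, 2 and 3. Its log2 change was larger, 1.30, with a standard error of 0.63, and it rested on wild-type replicates 2 and 3, since wild-type replicate 1 lay among the heterozygous arrays. Without wild-type replicate 3 this value was 0.69.

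Fst encodes follistatin, a secreted protein that binds and neutralises activins. Probe set 1434458_at had levels of 7.93, 8.02 and 7.91 in heterozygous replicates 1, 2 and 3, against 7.61, 7.14 and 7.44 in wild-type replicates 1, 2 and 3. The groups did not overlap, and the fold difference was 1.47 (log2 change 0.56, standard error 0.17, limma adjusted p = 0.878). The dimmer Fst probe set 1421365_at gave 5.98, 6.40 and 6.04 in heterozygous replicates 1, 2 and 3, against 5.99, 5.67 and 5.65 in wild-type replicates 1, 2 and 3. Here heterozygous replicate 1 lay just below wild-type replicate 1, and the log2 change was 0.37 (standard error 0.19). Both genotype means lay under 7.28, the median level across the array.

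The genes that glucocorticoids induce in nearly every cell type, Fkbp5, Tsc22d3 and Zbtb16, had smaller changes at their brightest probe sets. Fkbp5 is a co-chaperone that lowers hormone binding by the receptors and so closes a negative feedback loop. Its probe set 1416125_at had levels of 10.48, 10.72 and 10.35 in heterozygous replicates 1, 2 and 3, against 9.88, 10.40 and 10.44 in wild-type replicates 1, 2 and 3. Only wild-type replicate 1 lay clearly below the other arrays, and the groups overlapped (log2 change 0.28, 95% confidence interval -0.25 to 0.80, limma adjusted p = 0.933). In 1448231_at, the second Fkbp5 probe set, wild-type replicate 3 was instead the low array, at 7.10, with 8.01 to 8.39 in the heterozygous arrays and 8.16 and 8.09 in wild-type replicates 1 and 2 (log2 change 0.47). Without the low array the change was 0.098 for 1416125_at (wild-type replicate 1 left out) and 0.12 for 1448231_at (wild-type replicate 3 left out). The third, 1447736_at, was very dim, with means of 1.85 ± 1.55 in heterozygous and 2.02 ± 1.77 in wild-type oviducts (SD, n = 3 each) and 1 of 6 values under the floor of 1 intensity unit, so it gives no usable comparison.

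Tsc22d3 (also called Gilz) is a leucine zipper protein through which glucocorticoids restrain inflammatory transcription factors. At its brightest probe set, 1420772_a_at, levels were 11.41, 11.53 and 10.90 in heterozygous replicates 1, 2 and 3, against 11.04, 11.30 and 11.16 in wild-type replicates 1, 2 and 3. The heterozygous arrays held both the highest and the lowest value, and the log2 change was 0.11 (95% confidence interval -0.41 to 0.64, limma adjusted p = 0.959). Probe set 1425281_a_at gave a log2 change of 0.57 (standard error 0.32), with 10.21, 10.72 and 10.23 in heterozygous replicates 1, 2 and 3, against 10.27, 9.95 and 9.22 in wild-type replicates 1, 2 and 3. That difference was 0.28 without wild-type replicate 3. The remaining Tsc22d3 probe sets gave -0.02 and -0.09.

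Zbtb16 (also called Plzf) is a zinc finger transcription factor strongly induced by progesterone in human endometrial stroma. All 3 of its probe sets were higher in mean, by 0.26, 0.45 and 0.37. The brightest, 1439163_at, had levels of 10.63, 10.41 and 10.19 in heterozygous replicates 1, 2 and 3, against 10.04, 9.94 and 10.47 in wild-type replicates 1, 2 and 3, and overlapped because wild-type replicate 3 was high. The dimmest, 1427638_at, did not overlap, with 7.62, 7.60 and 7.81 in heterozygous replicates 1, 2 and 3, against 7.11, 7.41 and 7.40 in wild-type replicates 1, 2 and 3 (standard error 0.16, limma adjusted p = 0.933). With the Actb ratio as a term of the fit, the 3 values lay closer together, at 0.45, 0.46 and 0.43, and none passed (limma adjusted p = 0.959 to 0.988).

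Among the transcription factors of tissue identity and rhythm, Hand2 was higher and Per1 and Cebpb were lower in mean. Hand2, a helix-loop-helix factor of Müllerian stroma, had levels of 9.37, 9.56 and 9.33 in heterozygous replicates 1, 2 and 3, against 9.19, 8.69 and 9.19 in wild-type replicates 1, 2 and 3, at probe set 1436041_at. The groups were separated by a narrow gap (log2 change 0.40, standard error 0.19, limma adjusted p = 0.933). The dimmer Hand2 probe set 1422221_at gave 0.48, with overlap, and the very dim 1443854_at gave -0.19.

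Per1, a repressor of the circadian clock that glucocorticoids induce within hours, had the widest spread of the brightest probe sets. Levels at 1449851_at were 9.80, 9.23 and 8.49 in heterozygous replicates 1, 2 and 3, against 9.25, 9.73 and 10.03 in wild-type replicates 1, 2 and 3. Heterozygous replicate 1 lay among the wild-type arrays and heterozygous replicate 3 was the lowest (log2 change -0.49, 95% confidence interval -1.45 to 0.46, limma adjusted p = 0.933). Without heterozygous replicate 3 the Per1 change was -0.15, and without heterozygous replicate 1 it was -0.81. The hour of tissue collection is not stated in the labels. Cebpb, a leucine zipper factor needed for decidualisation in the mouse uterus, had levels of 11.49, 11.33 and 11.02 in heterozygous replicates 1, 2 and 3, against 11.26, 11.60 and 11.70 in wild-type replicates 1, 2 and 3, at 1418901_at. The array order of Cebpb matched that of Per1 within each genotype, with heterozygous replicate 3 lowest and wild-type replicate 3 highest of the 6 arrays. The Cebpb log2 change was -0.25 (95% confidence interval -0.74 to 0.25, limma adjusted p = 0.933), and the other probe set gave -0.15.

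Klf9, a Krüppel-like factor that partners the progesterone receptor and is itself induced by glucocorticoids, was measured by 7 probe sets. At the brightest, 1428288_at, levels were 11.98, 12.17 and 12.09 in heterozygous replicates 1, 2 and 3, against 12.24, 11.89 and 11.99 in wild-type replicates 1, 2 and 3. The genotypes were interleaved, and the log2 change was 0.04 with a 95% confidence interval of -0.35 to 0.43, which leaves room for a change of up to about that size in either direction. The other 6 ranged between -0.23 and 0.97. The upper end came from 1436952_at, with 7.01, 7.60 and 7.87 in heterozygous replicates 1, 2 and 3, against 7.91, 6.09 and 5.57 in wild-type replicates 1, 2 and 3. There wild-type replicate 1 was the highest of all 6 arrays, and the standard error was 0.64.

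**Figure D2:**
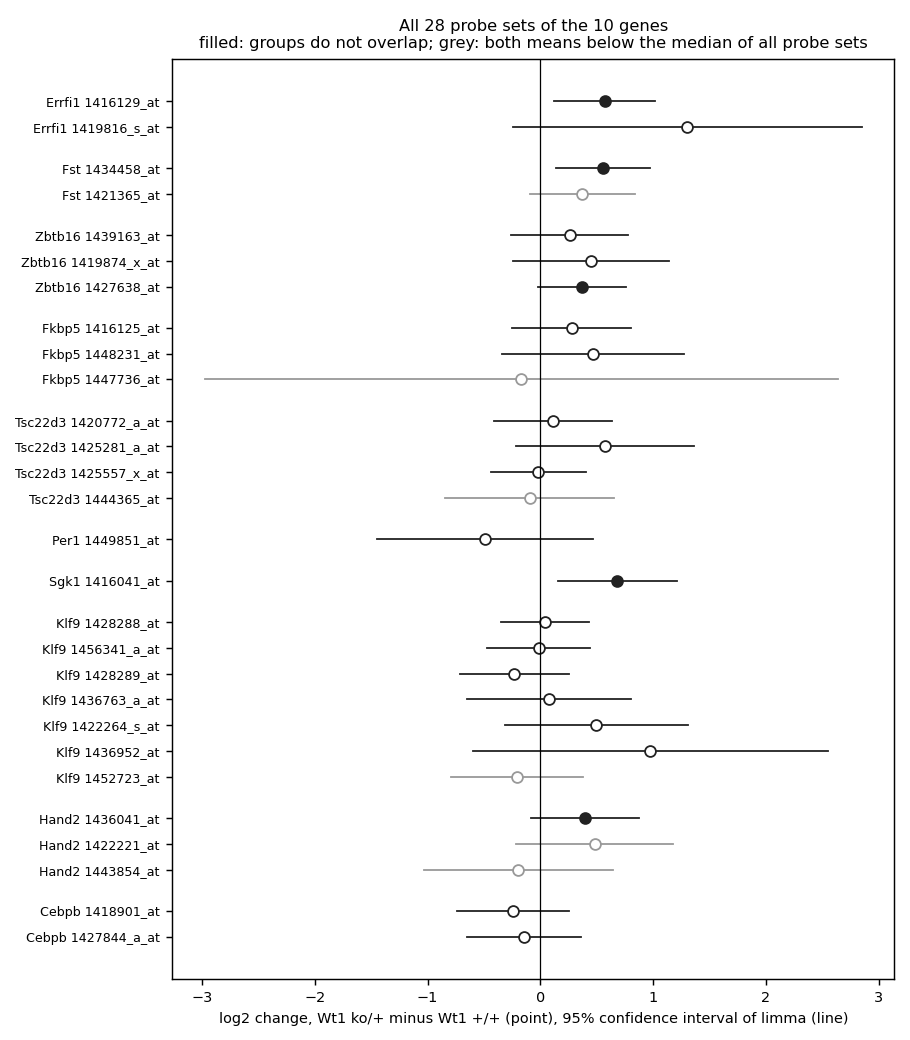
Log2 change (Wt1 ko/+ minus Wt1 +/+, horizontal axis) of all 28 probe sets, with limma's 95% confidence interval as a line, ordered by gene and by brightness within a gene. Filled points mark the 5 probe sets whose genotypes do not overlap, all on the positive side, and grey marks probe sets dim in both genotypes. The Klf9 probe sets fall on both sides of 0.

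Agreement between probe sets of a gene was mixed. Of the 28 probe sets, 18 had a positive log2 change, where 48.3% of all probe sets did, and 5 were higher without overlap and 0 lower without overlap, where 4.67% and 5.87% of all probe sets were. The 5 belonged to Errfi1, Fst, Zbtb16, Sgk1 and Hand2. Of the 10 genes, 8 had several probe sets, and 4 of these 8, Errfi1, Fst, Zbtb16 and Cebpb, showed 1 sign at all of theirs. Among the 9010 genes of the array with several probe sets, 41.9% showed 1 sign. The range of log2 change between the probe sets of a gene had a median of 0.65 over the 8 genes, against 0.41 over all such genes. This range grows with the number of probe sets, with a median of 0.27 over all genes with 2, 0.475 with 3, 0.63 with 4 and 0.81 with 6. It was 0.10 for Cebpb, 0.18 for Fst and 0.73 for Errfi1, each with 2 probe sets. With 3 probe sets it was 0.19 for Zbtb16, 0.64 for Fkbp5 and 0.67 for Hand2. Tsc22d3, with 4, had a range of 0.67, and Klf9, with 7, one of 1.20. The share of genes with 1 sign falls with the number of probe sets, to 12.3% of genes with 6.

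The values were also read by RNA quality. The arrays were set in 2 classes by the Actb ratio, the lower with heterozygous replicates 2 and 3 and wild-type replicate 1, the higher with heterozygous replicate 1 and wild-type replicates 2 and 3. Within these classes the log2 change was 0.26 in the lower and 0.71 in the higher class for Errfi1, 0.32 and 0.82 for Sgk1, and 0.35 and 0.64 for Fst. All 3 changes were smaller among the arrays of lower ratio. Their positive sign in both classes follows from the lack of overlap over all arrays and is no separate result. Hand2 stood at 0.25 and 0.43, Zbtb16 at 0.26 and 0.42, Tsc22d3 at 0.18 in both, and Klf9 at -0.11 and 0.04. Fkbp5 ran the other way, at 0.65 and 0.06. Per1 stood at -0.39 and -0.07 and Cebpb at -0.09 and -0.17. Each class holds 1 sample of a genotype against 2, so no test was made within them.

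**Figure D3:**
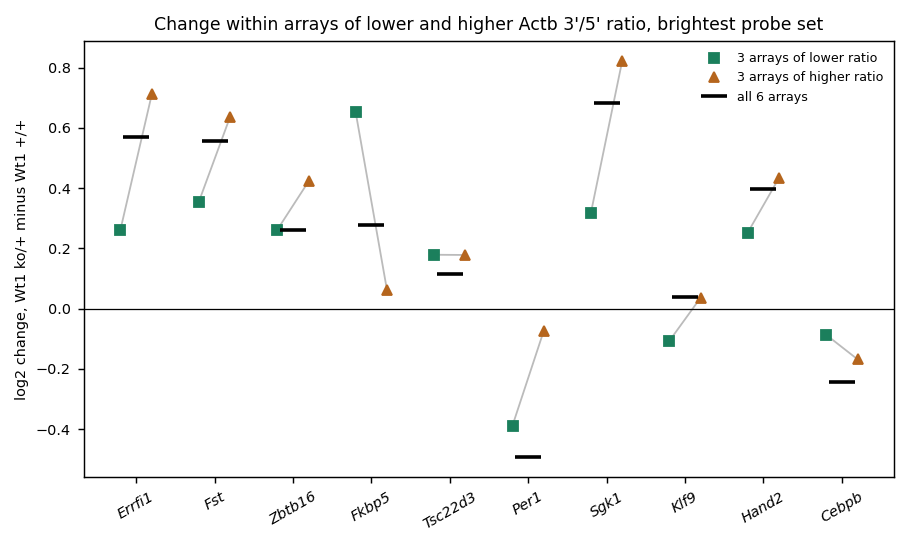
Log2 change (Wt1 ko/+ minus Wt1 +/+, vertical axis) of each gene at its brightest probe set, within the 3 arrays of lower Actb 3' to 5' ratio (squares), within the 3 of higher ratio (triangles) and over all 6 arrays (bars). Errfi1, Fst and Sgk1, whose genotypes do not overlap, must lie above 0 in both classes. Their values are lower in the arrays of lower ratio, and Fkbp5 shows the opposite order.

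Of the 28 probe sets, 8 had their lowest value in wild-type replicate 3, the array of highest ratio, and 8 in wild-type replicate 2, where these arrays were lowest in 21.4% and 13.6% of all probe sets. Heterozygous replicate 3, of lower ratio, was lowest in 7 of the 28 and in 15.8% of all probe sets. Wild-type replicate 3 was also the highest array in 5 of the 28 and in 26.2% of all probe sets. Heterozygous replicate 2, of lower ratio, was the highest array in 11 of the 28 and in 13.4% of all probe sets. Some secondary probe sets differed widely between the classes, among them Errfi1 1419816_s_at (0.19 in the lower and 1.64 in the higher class), Tsc22d3 1425281_a_at (0.21 and 0.62) and Klf9 1436952_at (-0.17 and 1.19). Over the 28 probe sets 22 had the more positive log2 change in the class of higher ratio, against 50.5% of all probe sets. Signs are counted here, so Per1, less negative in that class, is among the 22. With that ratio as a term of the fit, the log2 change was 0.49 for Sgk1, 0.47 for Errfi1 and 0.54 for Fst. Their limma adjusted p-values over probe sets were 0.938, 0.959 and 0.946. The part of RNA quality in these differences was not tested further. The position of the probes along each transcript was not analysed here.

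The other genes of the same hormone pathways were read from lists of 22 glucocorticoid-induced and 16 progesterone-responsive genes and of 10 receptors, enzymes and cofactors. Of the 21 measured glucocorticoid-induced genes, 14 had a positive and 7 a negative log2 change, with a median of 0.03, and 0 passed limma's adjusted threshold over all genes. The metal-binding metallothioneins Mt1 and Mt2 stood at 0.11 and 0.21 and Dusp1, a phosphatase of stress kinases, at 0.03, all with overlap. The highest values were 0.37 for Pdk4, a kinase that restrains pyruvate oxidation, and 0.37 for Il1r2, a decoy receptor of interleukin 1, both with overlap. Among all genes 5.0% were higher and 6.77% lower without overlap. Cdkn1a, the p21 inhibitor of the cell cycle, was the 1 gene of this list whose genotypes did not overlap. Its levels were 9.94, 10.14 and 10.16 in heterozygous replicates 1, 2 and 3, against 10.30, 10.89 and 10.91 in wild-type replicates 1, 2 and 3 (log2 change -0.62, limma adjusted p = 0.681 over genes). Within the classes of lower and higher Actb ratio this change was -0.15 and -0.96. The other Cdkn1a probe set overlapped (-1.48), with heterozygous replicate 1, at 3.90, far below the rest. Ddit4, a stress-induced brake on mTOR signalling, stood at -0.47, with overlap.

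Of the 14 measured progesterone-responsive genes, 5 had a positive and 9 a negative change, with a median of -0.08, and 0 passed. Hdc, which makes histamine, was higher by 0.18, the 1 gene of this list without overlap (5.0% of all genes were higher without overlap). Its other probe set overlapped (0.31). In the deposited intensities Hdc overlapped at its brightest probe set too, with 8930.8 in heterozygous replicate 3 and 9143.8 in wild-type replicate 3. Ihh, the hedgehog ligand of uterine epithelium, stood at -0.09. The highest value was 0.43 for Gata2, a zinc finger factor of uterine epithelium, with overlap at its brightest probe set and 0.60 without overlap at its other one. At the brightest probe sets of the receptors, the log2 change was 0.11 for Pgr, the progesterone receptor (11.89, 12.06 and 12.11 in heterozygous replicates 1, 2 and 3, against 11.79, 11.85 and 12.09 in wild-type replicates 1, 2 and 3), and 0.06 for Nr3c1, the glucocorticoid receptor. Their other probe sets disagreed with these: Pgr ranged between -0.10 and 1.41 over 3 probe sets and Nr3c1 between -0.15 and 1.13 over 6. The Pgr value of 1.41 came without overlap, from 7.20, 7.41 and 7.16 in heterozygous replicates 1, 2 and 3, against 6.72, 4.08 and 6.73 in wild-type replicates 1, 2 and 3, of which replicate 2 was far below the rest. The enzyme Hsd11b1, which regenerates active glucocorticoid inside cells, stood at -0.51 with overlap (limma adjusted p = 0.854 over genes). In all, 0 of 8 measured receptors, enzymes and cofactors passed. The genes of these lists other than Cdkn1a and Hdc were chosen after their values were seen.

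**Figure D4:**
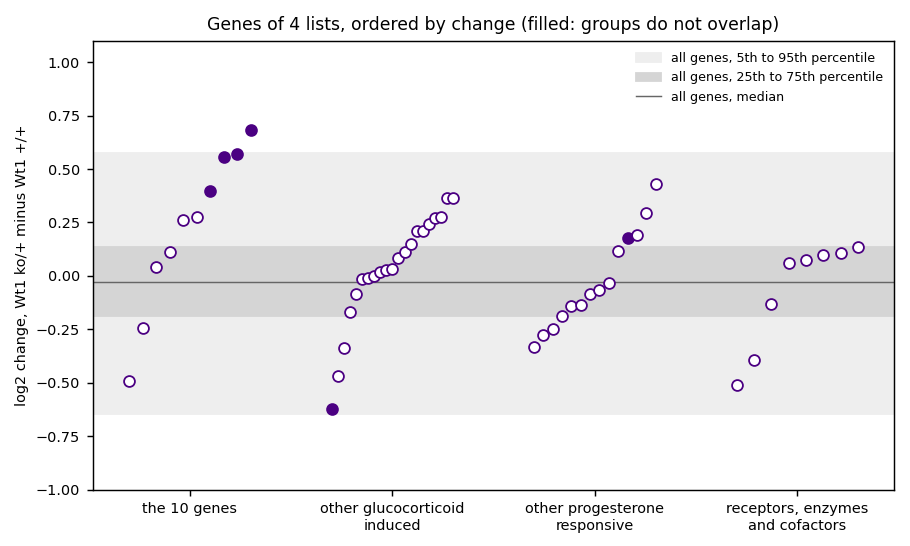
Log2 change (Wt1 ko/+ minus Wt1 +/+, vertical axis) of the 10 genes and of 3 lists of other pathway genes, each point a gene at its brightest probe set and ordered within its list. Filled points do not overlap between genotypes, and grey bands give the spread of all 18193 genes, the outer one without the highest and lowest 5% of genes. The median is 0.27 for the 10 genes, 0.03 for the glucocorticoid list, -0.08 for the progesterone list and 0.07 for the receptors, enzymes and cofactors. Genes and lists were chosen with earlier results of these data known, so these medians are a description.

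The summed intensities of markers of some cell types did not overlap between the genotypes, while the sums of others overlapped. No marker of any of these lists passed limma's adjusted threshold over all genes. A sum weighs the brightest markers most. All 6 smooth muscle markers were higher in mean in heterozygous oviducts, with a summed normalized intensity of 32773 to 43761 in heterozygous and 28961 to 31126 in wild-type arrays. All 6 stromal markers were higher in mean (summed 32975 to 38282 in heterozygous and 29908 to 32610 in wild-type arrays), as were all 5 endothelial markers (2422 to 2968 and 1885 to 2305). Higher without overlap were 5 of the 6 smooth muscle, 1 of the 6 stromal and 1 of the 5 endothelial markers, against 5.0% of all genes. Of 4 adipocyte markers 3 were higher, with sums of 345 to 625 in heterozygous and 146 to 179 in wild-type arrays. Adipoq and Fabp4 were higher without overlap, by 2.08 and 1.48 (limma adjusted p = 0.517 and 0.503 over genes). Adipoq lay under the median level of the array in both genotypes, and 1 of the 4 Fabp4 probe sets was lower in mean. The defining fat hormone Lep was near the bottom of the scale in both genotypes, at 3.34 and 3.37. Of 4 uterine gland markers 3 were higher, with sums of 2336 to 2669 in heterozygous and 1255 to 1751 in wild-type arrays. Among them Cxcl15, a chemokine of mouse uterine glands, had a log2 change of 2.50 without overlap (limma adjusted p = 0.062 over genes). Prss29 stood at 0.65 and Foxa2, the factor that defines glands, at -0.06, both with overlap. No sum was taken without Cxcl15, so these sums do not show a difference in gland markers apart from that gene. Of 6 ciliated markers 4 were lower and 2 higher, with sums of 9441 to 10389 in heterozygous and 10435 to 11713 in wild-type arrays. Without Foxj1 the ciliated sums overlapped, at 5976 to 7175 in heterozygous and 6240 to 7710 in wild-type arrays. The secretory sums also overlapped, at 46282 to 48925 in heterozygous and 44374 to 49447 in wild-type arrays. Leukocyte sums overlapped at 4242 to 5237 in heterozygous and 3853 to 5085 in wild-type arrays. The same held for mesothelium (2367 to 3011 and 1758 to 3309) and ovary (516 to 552 and 547 to 793). All 4 ovarian markers were lower in mean. Of the markers counted as higher, adipocyte Cidec was very dim, at 3.97 in heterozygous and 2.71 in wild-type samples. So were uterine gland Prss28 (3.86 and 2.23) and ciliated Spag6 (2.96 and 1.79). Hand2, Fst and Sgk1 can be expressed in stromal or muscle cells, and the part of these cell types in the differences of the 10 genes was not tested.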

How the data were processed

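Each array has 45101 probe sets, and the values the authors deposited for them are linear intensities; per the labels, cRNA was biotin labelled. No source used here names the summarising program. The mean intensity after trimming 2% at each end was 500.002 in every array, so the deposited values had been scaled. No detection calls were used. The number of arrays limits precision.

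Control probe sets (64) were left out, intensities under 1 were set to 1, and values were log2 transformed and quantile normalized, since array medians differed by 0.147 (limit 0.1). Of the rest, 34945 probe sets had 1 symbol in the platform annotation, 932 several and 9160 none listed. A gene was read at its probe set of highest mean. Differences are heterozygous minus wild type, by limma 3.58.1 in R 4.3.3 (two-sided, Benjamini-Hochberg, threshold 0.05), over all probe sets and over all genes. Standard errors and intervals are limma's; SDs are over 3 arrays; single values had an exact permutation test. The script was tested on simulated data.

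By rule the text names Wt1, the 10 members and, of each pathway list, genes that passed or up to 2 a direction that did not overlap and were brighter than the median. Other genes of these lists were added by role or size of change after their values were seen. Members and lists were chosen with earlier results of these data known. Replicate numbers were checked for pairing: deviations of same-numbered arrays correlated at -0.164, -0.023 and -0.0924. These values show no pairing, but so few correlations cannot exclude one. Since the labels name no separate animals, p-values measure only spread among arrays, possibly technical. Alternatives were other scaling, floor, dim filter, eBayes settings, array weights, replicate block, the Actb ratio as a covariate, left-out arrays, probe set choices and, for counts of members, settings added after the data were seen.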

Additional observations from a re-analysis of the deposited data

How the results depend on the processing

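No member probe set or gene passed the threshold under any alternative run: the lowest limma adjusted p was 0.268 over probe sets and 0.195 over genes. Of 546 recomputed single values, 516 kept their sign. Some alternatives could not turn a sign. The eBayes settings and the replicate block leave a log2 change as it is, as do filters for a probe set that they keep. Leaving out an array cannot turn the sign of a gene without overlap, as for Errfi1, Fst, Sgk1 and Hand2. Errfi1, Fst, Sgk1, Hand2, Zbtb16, Fkbp5 (except its dim probe set 1447736_at), Per1 and Cebpb kept their sign at their brightest probe sets under all alternatives. Sgk1 ranged between 0.49 and 0.88, Errfi1 between 0.47 and 0.94, Fst between 0.43 and 0.72 and Hand2 between 0.23 and 0.62 as genes. Per1 ranged between -0.81 and -0.15, Fkbp5 between 0.098 and 0.40, and Zbtb16 between 0.16 and 0.56.

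Signs turned only where the log2 change of the main fit lay between -0.19 and 0.11, and the cause was not tested. Among these, Fkbp5 1447736_at and Hand2 1443854_at were very dim. With the 3' to 5' covariate Klf9 stood at -0.028 as a gene and at probe set 1428288_at, Klf9 1456341_a_at at 0.060, Fkbp5 1447736_at at 0.47, Tsc22d3 1425557_x_at at 0.069 and Tsc22d3 1444365_at at 0.079. With array weights Fkbp5 1447736_at stood at 1.15 and Klf9 1456341_a_at at 0.19. Leaving out each array gave ranges of -0.27 to 0.035 for Cebpb 1427844_a_at, -1.18 to 0.67 for Fkbp5 1447736_at, -0.45 to 0.067 for Hand2 1443854_at, -0.036 to 0.14 for Klf9 and its 1428288_at, -0.17 to 0.34 for Klf9 1436763_a_at, -0.18 to 0.088 for Klf9 1456341_a_at, -0.013 to 0.30 for Tsc22d3 and its 1420772_a_at, -0.11 to 0.11 for Tsc22d3 1425557_x_at and -0.29 to 0.22 for Tsc22d3 1444365_at.

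Of the 10 members, 6 to 8 had a positive change when each array was left out (6 without heterozygous replicate 2), and 4 to 6 were higher without overlap, where 8.22% to 12.0% of all genes were. The lower count of 4 was fixed in advance, since Errfi1, Fst, Sgk1 and Hand2 cannot come to overlap by leaving out an array. Without heterozygous replicate 1 Per1 was lower without overlap (13.0% of all genes were), and without wild-type replicate 1 Cebpb was (19.9% of all genes). When all probe sets of a gene were averaged, 4 were higher without overlap, Fst, Sgk1, Tsc22d3 and Zbtb16, so Errfi1 and Hand2 overlapped there. Over all genes 3 passed the limma threshold. The count was 7 with array weights, 6 after dim probe sets were filtered, 1 with a robust trended prior, and 0 with the replicate block, the covariate or without cross-hybridizing probe sets (976, 1114 and 1129 genes at an unadjusted p under 0.05). It was 0 to 0 without each array in turn (841 to 1906 at an unadjusted p under 0.05). Over all probe sets 3 passed, 1 with log2 of the intensity plus 16, 14 with array weights and 0 with the replicate block or the covariate (2024 and 2339 at an unadjusted p under 0.05), and 0 to 1 without each array. The replicate block changed no call of the members. Without detection calls, how far a dim probe set lies above background is unknown.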
